A study of Mus musculus with 10 samples.

Results

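The brush border peptidases examined here were 9 genes of the 54838 listed for mouse intestinal crypts, taken by gene symbol from a named set of peptidases that sit on the apical membrane of absorptive cells: Anpep, Enpep, Dpp4, Ace, Mep1a, Mep1b, Mme, Naaladl1 and Tmprss15. All 9 were found and all 9 were tested. RNA was sequenced from the crypts of 5 wild-type (WT) mice and 5 mice with conditional loss of Arid3a (Arid3a cKO, labelled KO), a gene for a DNA-binding protein of the AT-rich interaction domain family. Animals of both groups had received tamoxifen on 3 days in a row and were killed 1 month after the first injection. The study describes the Arid3a cKO animals as VillinCre-ERT2 +/-; Arid3a fl/fl, so that deletion is directed to cells that use the Villin promoter, the intestinal epithelium, and stromal cells keep the gene. The alleles of the WT animals, whether they carried the Cre, and the age and sex of either group are not given in the sources used here. The study took crypts from a piece of jejunum after the villi had been scraped off.

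Dietary protein reaches the jejunum as peptides cut by gastric and pancreatic proteases, and the last steps of digestion take place on the microvilli of enterocytes. There, aminopeptidases trim residues from one end of a peptide and dipeptidyl peptidases release pairs of residues. Dipeptidases split such pairs, and endopeptidases cut within the chain. Di- and tripeptides and free amino acids are then taken up by carriers in the same membrane. Enteropeptidase stands apart from the others in that its substrate is trypsinogen, which it turns into trypsin. These enzymes are known as products of differentiating and mature enterocytes, and are low in the stem and progenitor cells of the crypt base.

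In the Arid3a cKO crypts all 9 peptidases were higher than in WT, by 1.80-fold (Dpp4) to 5.16-fold (Tmprss15), and each passed the threshold of an adjusted p of 0.05 in the quasi-likelihood test of edgeR, adjusted by Benjamini and Hochberg's method over 14719 genes. Of all genes tested, 15.6% were higher past the same threshold, 12.7% were lower and 28.3% differed in either direction. The median log2 fold change of the 9 peptidases was 1.54, beside -0.03 over all genes. An increase of at least 1 on the log2 scale that also passed the threshold was found for 8 of the 9, all but Dpp4, and for 3.5% of all genes. The peptidases differed among themselves in how firmly the call held: those of Dpp4, Mep1a, Mme and Tmprss15 held whichever library was left out, and those of Anpep, Enpep, Mep1b, Ace and Naaladl1 did not, as given gene by gene further on.

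The libraries held 27050455 to 28152743 counts in WT and 28314069 to 31053622 in Arid3a cKO. The targeted gene was checked first. Arid3a (chr10:79927043-79955018, plus strand, GRCm38) had 55, 60, 81, 80 and 74 counts in the WT libraries 1 to 5 and 9, 14, 14, 26 and 31 in the Arid3a cKO libraries 1 to 5. No Arid3a cKO library reached the lowest WT library, and the gene fell by 1.84 ± 0.32 (log2, SE, n = 5 per group; adjusted p = 0.00204, edgeR). Markers of intestinal epithelium were abundant in both groups, with summed levels of 3200 to 3530 TPM (transcript levels per length, scaled to the same total in every library) in WT and 3410 to 3940 in Arid3a cKO. The most abundant, the keratin Krt8, was at 1260 ± 80.2 and 1230 ± 113 TPM (SD, n = 5). The animal identifiers in the labels belong to a separate series in each genotype, with no shared stem. Whether these series stand for colony, litter or something else is not known here. Whatever they stand for cannot be told apart from genotype, and p-values measure the spread between these animals only. In whole crypts, more cells of a type and more RNA per cell of that type also cannot be told apart.

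On GRCm38, Anpep (ENSMUSG00000039062) spans chr7:79821803-79861059 on the minus strand, Enpep (ENSMUSG00000028024) chr3:129269175-129332720 on the minus strand and Mme (ENSMUSG00000027820) chr3:63241537-63386030 on the plus strand. Dpp4 (ENSMUSG00000035000) spans chr2:62330073-62412231 on the minus strand and Ace (ENSMUSG00000020681) chr11:105967945-105989964 on the plus strand. Mep1a (ENSMUSG00000023914) spans chr17:43474324-43502812 on the minus strand. Naaladl1 (ENSMUSG00000054999) spans chr19:6105782-6115792 on the plus strand and Tmprss15 (ENSMUSG00000022857) chr16:78953008-79091097 on the minus strand. Predicted genes overlap 6 of the 9 spans, and none of those exceeded 0.83 TPM in any library.

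Because the 9 genes moved the same way, their promoters were read for the core motifs of factors known from enterocytes. RefSeq promoters (GRCm38.p6) were found for 7 of the 9 genes, and Mep1b and Naaladl1 were not matched. In the 250 bases before each annotated start, on both strands, the HNF1 half-site GTTAAT was found only for Tmprss15 among the 7 genes (6.43% of 32851 promoters of the same length hold it), the HNF4 core CAAAGTC only for Ace (3.84%), the CDX core TTTATG only for Tmprss15 (10.8%) and the GATA core AGATAA only for Dpp4 (9.99%). The letters TATAAA were found for Ace, Dpp4 and Enpep (12.4% of promoters), and ATTAAA, used here for ARID3A, for none of the 7 (12.7%). No motif was thus common to the set, and a match in such short letters is a description of the sequence and not evidence of a site. The windows up to 150 bases before the start are shown 5′ to 3′ for the gene with the largest increase (Tmprss15), the one with the smallest (Dpp4), the most abundant (Anpep), and the others with a match in the window (Ace, Enpep), with the matches in capitals, which on the opposite strand appear as their reverse complement.
Tmprss15, chr16:79091098-79091247, minus strand: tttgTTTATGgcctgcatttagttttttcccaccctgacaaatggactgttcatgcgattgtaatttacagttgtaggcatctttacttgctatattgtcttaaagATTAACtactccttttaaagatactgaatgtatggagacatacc
Dpp4, chr2:62412232-62412381, minus strand: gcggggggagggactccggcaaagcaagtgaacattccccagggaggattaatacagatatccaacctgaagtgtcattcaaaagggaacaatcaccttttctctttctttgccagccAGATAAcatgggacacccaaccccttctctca
Ace, chr11:105967798-105967944, plus strand: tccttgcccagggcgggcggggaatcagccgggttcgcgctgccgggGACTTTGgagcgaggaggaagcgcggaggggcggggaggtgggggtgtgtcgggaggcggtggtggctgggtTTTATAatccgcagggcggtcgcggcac
Enpep, chr3:129332750-129332899, minus strand: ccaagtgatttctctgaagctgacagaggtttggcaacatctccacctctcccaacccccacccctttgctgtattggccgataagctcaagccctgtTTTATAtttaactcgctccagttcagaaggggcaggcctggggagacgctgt
Anpep, chr7:79848211-79848360, minus strand: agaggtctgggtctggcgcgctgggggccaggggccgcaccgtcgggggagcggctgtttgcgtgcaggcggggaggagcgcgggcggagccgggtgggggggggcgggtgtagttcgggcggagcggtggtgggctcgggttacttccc
In Tmprss15 the capitals are TTTATG, which begins 146 bases before the start, and the reverse of GTTAAT, 44 bases before it. In Dpp4 they are AGATAA, 32 bases before the start. The Ace window ends 3 bases short of the start, where the annotation has an exon. In Ace they are the reverse of CAAAGTC and of TATAAA, 103 and 31 bases before the start, and in Enpep the reverse of TATAAA, 52 bases before it. The Anpep window holds none of these letters and lies within the wider span that GENCODE gives the gene.

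Anpep encodes aminopeptidase N, which removes neutral residues from the amino end of peptides, and it was the most abundant of the 9. It stood at 431, 864, 279, 155 and 298 TPM in WT replicates 1 to 5 and at 1180, 819, 646, 1040 and 1260 TPM in Arid3a cKO replicates 1 to 5. The groups overlapped through WT replicate 2, which lay above the Arid3a cKO replicates 2 and 3, while the other 4 WT libraries lay below every Arid3a cKO library. The increase was 2.50-fold (log2 1.32 ± 0.40, SE, n = 5 per group; adjusted p = 0.0376, edgeR). The call was lost without WT replicate 1 (adjusted p = 0.0608), 3 (0.0834) or 5 (0.0823) and without Arid3a cKO replicate 1 (0.0785), 2 (0.0564), 4 (0.0631) or 5 (0.0887), and was firmest without WT replicate 2 (0.00322, log2 fold change 1.74).

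Enpep encodes aminopeptidase A, which removes acidic residues and is known for its action on angiotensin peptides. Its levels were 73.8, 89.7, 41.4, 23.7 and 36.1 TPM in WT and 147, 110, 87.5, 133 and 174 TPM in Arid3a cKO, in the order of replicates 1 to 5. WT replicate 2 lay just above Arid3a cKO replicate 3, and no other pair of libraries crossed. Enpep rose 2.71-fold (log2 1.44 ± 0.40, SE; adjusted p = 0.0256, edgeR). Without WT replicate 3 (adjusted p = 0.0596) or 5 (0.0594), or without Arid3a cKO replicate 1 (0.0543) or 5 (0.0641), it did not pass.

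Dpp4 encodes dipeptidyl peptidase 4, which releases dipeptides with proline or alanine next to the amino end and inactivates incretin hormones. It changed least and was the steadiest across animals, at 48.7, 45.9, 40.8, 35.7 and 28.4 TPM in WT and 65.1, 64.0, 55.9, 81.3 and 82.3 TPM in Arid3a cKO. Every Arid3a cKO library was above every WT library. The 1.80-fold increase (log2 0.85 ± 0.16, SE; adjusted p = 0.00417, edgeR) kept its call when any library was left out, with a highest adjusted p of 0.0132.

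Ace encodes angiotensin-converting enzyme, which removes dipeptides from the carboxyl end of peptides. It was at 71.8, 87.6, 21.8, 14.8 and 32.3 TPM in WT and at 124, 145, 75.6, 198 and 258 TPM in Arid3a cKO, so that the highest library was 5.94 times the lowest in WT and 3.41 times in Arid3a cKO. WT replicate 2 exceeded Arid3a cKO replicate 3, and the remaining libraries were separate. Ace rose 3.75-fold (log2 1.91 ± 0.55, SE; adjusted p = 0.0312, edgeR). It did not pass without WT replicate 3 (adjusted p = 0.0666) or 5 (0.0671), or without Arid3a cKO replicate 1 (0.0507), 2 (0.0530), 4 (0.0575) or 5 (0.0777).

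The endopeptidases were the meprin subunits Mep1a and Mep1b and neprilysin, Mme. Meprin β is held in the membrane and can anchor meprin α, which is otherwise secreted. Mep1b was the second most abundant member in mean TPM and Mep1a the second least, at 59.9 ± 41.0 and 8.04 ± 2.03 TPM in WT (SD, n = 5). Mep1a was at 9.95, 10.5, 6.99, 6.87 and 5.92 TPM in WT and at 16.1, 15.2, 11.1, 23.9 and 22.1 TPM in Arid3a cKO, without overlap. It rose 2.35-fold (log2 1.23 ± 0.22, SE; adjusted p = 0.00348, edgeR), and its highest adjusted p was 0.0121 when any library was left out.

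Mep1b (ENSMUSG00000024313, chr18:21061923-21100199, plus strand, GRCm38), on another chromosome than Mep1a, was at 70.8, 125, 37.9, 18.3 and 47.3 TPM in WT and at 214, 143, 121, 210 and 192 TPM in Arid3a cKO. WT replicate 2 again lay above Arid3a cKO replicate 3, and no other libraries crossed. Mep1b rose 3.08-fold (log2 1.63 ± 0.47, SE; adjusted p = 0.0305, edgeR). The call was lost without WT replicate 1 (adjusted p = 0.0510), 3 (0.0678) or 5 (0.0659) and without Arid3a cKO replicate 1 (0.0659), 4 (0.0573) or 5 (0.0678).

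Mme, which cuts small peptides before hydrophobic residues, was at 64.5, 59.7, 35.1, 24.7 and 28.1 TPM in WT and at 116, 118, 84.5, 178 and 156 TPM in Arid3a cKO. The lowest Arid3a cKO library stood clear of the highest WT library. Mme rose 3.41-fold (log2 1.77 ± 0.32, SE; adjusted p = 0.00490, edgeR), with a highest adjusted p of 0.0156 when any library was left out.

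Naaladl1 encodes a relative of glutamate carboxypeptidase II found on the intestinal apical membrane. It was at 14.3, 22.6, 6.77, 6.70 and 10.5 TPM in WT and at 31.9, 30.5, 17.3, 43.2 and 44.7 TPM in Arid3a cKO, with WT replicate 2 above Arid3a cKO replicate 3. It rose 2.90-fold (log2 1.54 ± 0.40, SE; adjusted p = 0.0205, edgeR), and the call was lost only without Arid3a cKO replicate 5 (adjusted p = 0.0524) among the single libraries left out.

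Tmprss15 encodes enteropeptidase and was the least abundant of the set, with 125 to 378 counts per WT library. Its levels were 3.91, 4.36, 2.11, 1.56 and 1.90 TPM in WT and 14.1, 11.4, 11.2, 24.0 and 6.60 TPM in Arid3a cKO. The groups did not overlap. Tmprss15 was the member with the largest increase, 5.16-fold (log2 2.37 ± 0.39, SE; adjusted p = 0.00344, edgeR), and its highest adjusted p was 0.0115 when any library was left out. It also broke the order of the Arid3a cKO animals, since its lowest library there was replicate 5, in which 5 of the other members were at their highest.

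**Figure D1:**
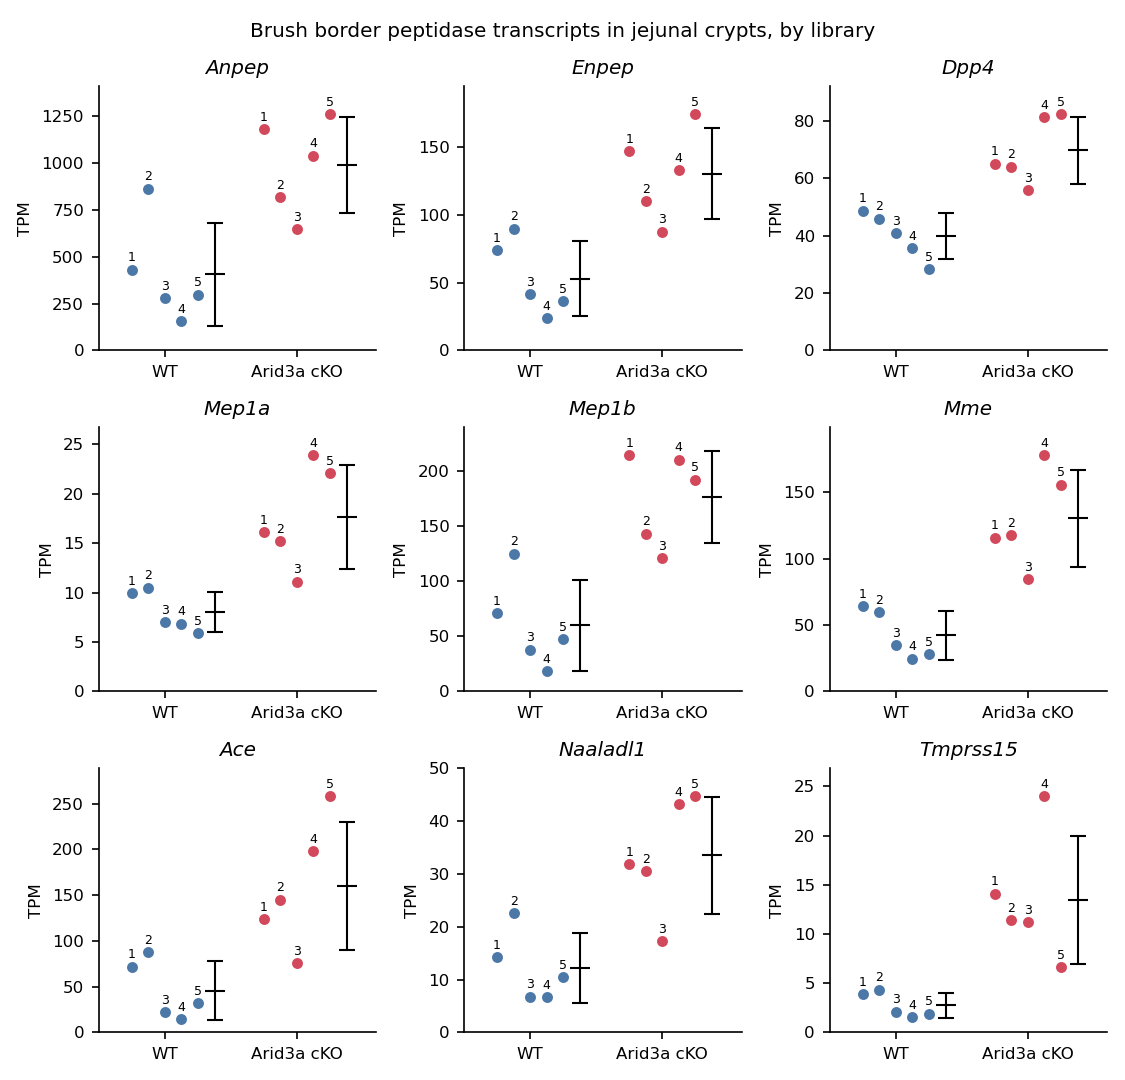
TPM of each of the 9 peptidases (vertical axes, linear and from 0) in the 5 WT (blue) and 5 Arid3a cKO (red) libraries, numbered by replicate, with the mean ± SD (black, n = 5) at the right of each group. Dpp4, Mep1a, Mme and Tmprss15 show no overlap between groups, and in the other 5 panels WT replicate 2 is the one WT library that reaches into the Arid3a cKO range.

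Every Arid3a cKO library was thus above every WT library in TPM for 4 of the 9 members, beside 6.43% of all genes tested, and for the other 5 the overlap came from WT replicate 2 alone. The members shared an order of libraries. WT replicate 4 was the lowest WT library for 7 of the 9 and WT replicate 2 the highest for 7, and Arid3a cKO replicate 3 was the lowest of its group for 8. The highest WT value was 1.72 to 6.83 times the lowest, and in Arid3a cKO 1.47 to 3.64 times. The SD of log2 TPM was larger in WT than in Arid3a cKO for 7 of the 9, all but Mep1a and Tmprss15. WT replicate 4 was not equally low for all: in it Dpp4 and Mep1a were at 35.7 and 6.87 TPM, both above their own lowest WT library, while Ace and Mep1b were at 14.8 and 18.3 TPM.

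**Figure D2:**
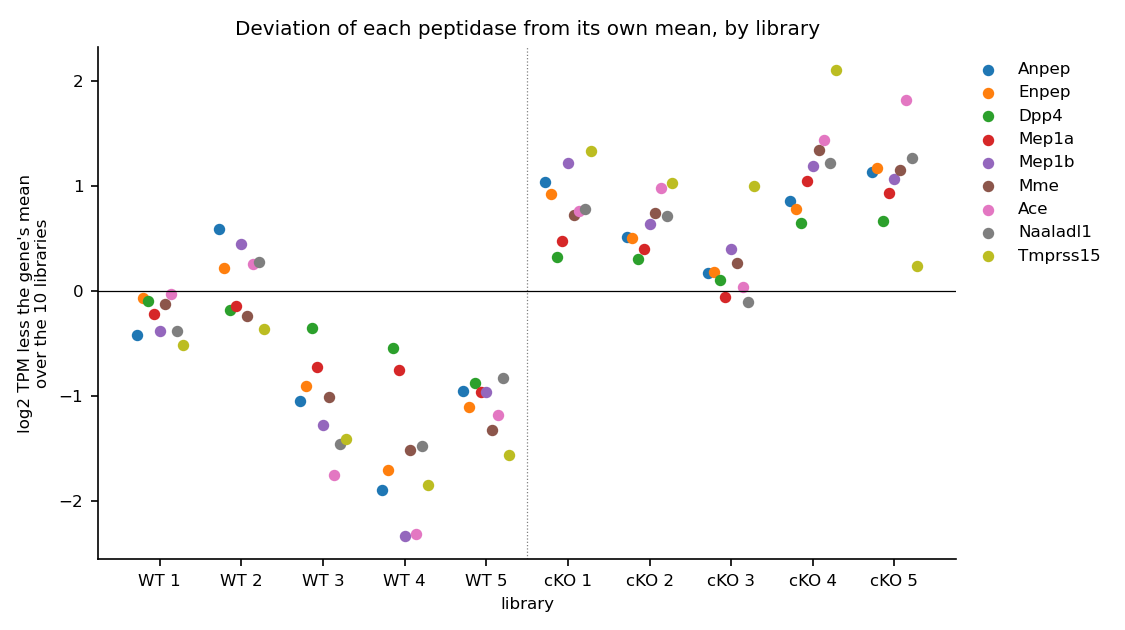
Each point is the log2 TPM of 1 peptidase (colour) in 1 library (horizontal axis, numbered as in the labels, with no order among animals) less that gene's mean over the 10 libraries. Points of a library lie near each other, lowest in WT replicate 4 for 7 of the 9 and, within Arid3a cKO, lowest in replicate 3 for all but Tmprss15.

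Across the set, summed TPM was 669 ± 401 in WT (SD, n = 5, range 288 to 1310) and 1720 ± 432 in Arid3a cKO (range 1110 to 2190). Anpep made up 59.0 ± 4.92% of the sum in WT and 57.5 ± 2.92% in Arid3a cKO, so the most abundant enzyme held a like share in both. By mean TPM the WT order was Anpep, Mep1b, Enpep, Ace, Mme, Dpp4, Naaladl1, Mep1a and Tmprss15. Neighbours in this order had separate ranges only between Anpep (406 ± 274 TPM) and Mep1b, between Dpp4 (39.9 ± 8.15) and Naaladl1 (12.2 ± 6.61), and between Mep1a and Tmprss15 (2.77 ± 1.27). In Arid3a cKO the order was Anpep (989 ± 254 TPM), Mep1b (176 ± 41.8), Ace (160 ± 70.0), Mme (130 ± 36.8), Enpep (130 ± 33.4), Dpp4 (69.7 ± 11.6), Naaladl1 (33.5 ± 11.1), Mep1a (17.7 ± 5.25) and Tmprss15 (13.5 ± 6.49). Enpep, the third in WT, came after Ace and Mme here, but the ranges of these neighbours overlapped in both groups. Neighbours with separate ranges in Arid3a cKO were Anpep and Mep1b, Enpep and Dpp4, and Dpp4 and Naaladl1. Within single libraries, Enpep was above Ace in all 5 of WT, though their ranges overlapped. In Arid3a cKO, Naaladl1 was likewise above Mep1a in all 5 libraries, and Mme was above Enpep in 2 of 5. The mean transcript length that the quantification assigned to each gene overlapped between groups for all 9.

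The question whether the peptidases rose more than the brush border itself was put to the ratio of each member's TPM to that of Vil1, which encodes villin, an actin-bundling protein of the microvillus core. Vil1 itself stood at 304, 349, 271, 271 and 266 TPM in WT and at 513, 408, 362, 548 and 506 TPM in Arid3a cKO, and rose 1.74-fold (log2 0.80 ± 0.13, SE; adjusted p = 0.00182, edgeR). The villin promoter also drives the Cre. Relative to Vil1, 5 of the 9 peptidases were higher in Arid3a cKO by a two-sided exact permutation test over all 252 assignments of the libraries, with Benjamini-Hochberg adjustment over 14572 genes, beside 2.06% of those genes. All 9 differences were above 0, beside 6.06% of genes. Because Vil1 itself rose, most genes were lower in this ratio, which keeps the adjusted p not far above the exact p. The adjusted values of this ratio thus add little to the exact p of each member.

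For Tmprss15 the level was 1.29, 1.25, 0.778, 0.575 and 0.715% of Vil1 in WT and 2.75, 2.80, 3.09, 4.39 and 1.30% in Arid3a cKO. For Mme it was 21.2, 17.1, 12.9, 9.11 and 10.6% in WT and 22.6, 28.8, 23.3, 32.5 and 30.8% in Arid3a cKO. These were the 2 members without overlap in the ratio, as found for 1.02% of genes, though Arid3a cKO replicate 5 cleared the highest WT library by little for Tmprss15 and replicate 1 for Mme. The differences were log2 1.61 for Tmprss15 and 1.01 for Mme (exact p = 0.00794 each, the smallest this design allows; adjusted p = 0.0156). Both calls held whichever library was left out.

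Mep1b (log2 difference 1.13, exact p = 0.0238, adjusted p = 0.0330), Naaladl1 (0.88, exact p = 0.0317, adjusted p = 0.0417) and Mep1a (0.45, exact p = 0.0317, adjusted p = 0.0417) also passed, with overlapping groups. For Mep1b the call was lost without Arid3a cKO replicate 1 (adjusted p = 0.0640), 4 (0.0549) or 5 (0.0553). For Naaladl1 it was lost without any 1 library other than WT replicate 2 or Arid3a cKO replicate 3 (adjusted p 0.0540 to 0.0811). Mep1a lost it without WT replicate 2 (0.0578), 3 (0.0811), 4 (0.0808) or 5 (0.0781) and without Arid3a cKO replicate 2 (0.0699), 4 (0.0722) or 5 (0.0726). The members that did not pass were Ace (log2 difference 1.34, exact p = 0.0397, adjusted p = 0.0504), Anpep (0.81, exact p = 0.0476, adjusted p = 0.0592), Enpep (0.76, exact p = 0.0476, adjusted p = 0.0592) and Dpp4 (0.15, exact p = 0.286, adjusted p = 0.307). Ace passed without WT replicate 1 (adjusted p = 0.0366) or 2 (0.0228), Anpep without WT replicate 2 (0.0167), and Enpep without WT replicate 1 (0.0366) or 2 (0.0315). Ace also came just under the threshold without Arid3a cKO replicate 3. Dpp4 was 10.7 to 16.0% of Vil1 in WT and 12.7 to 16.3% in Arid3a cKO.

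**Figure D3:**
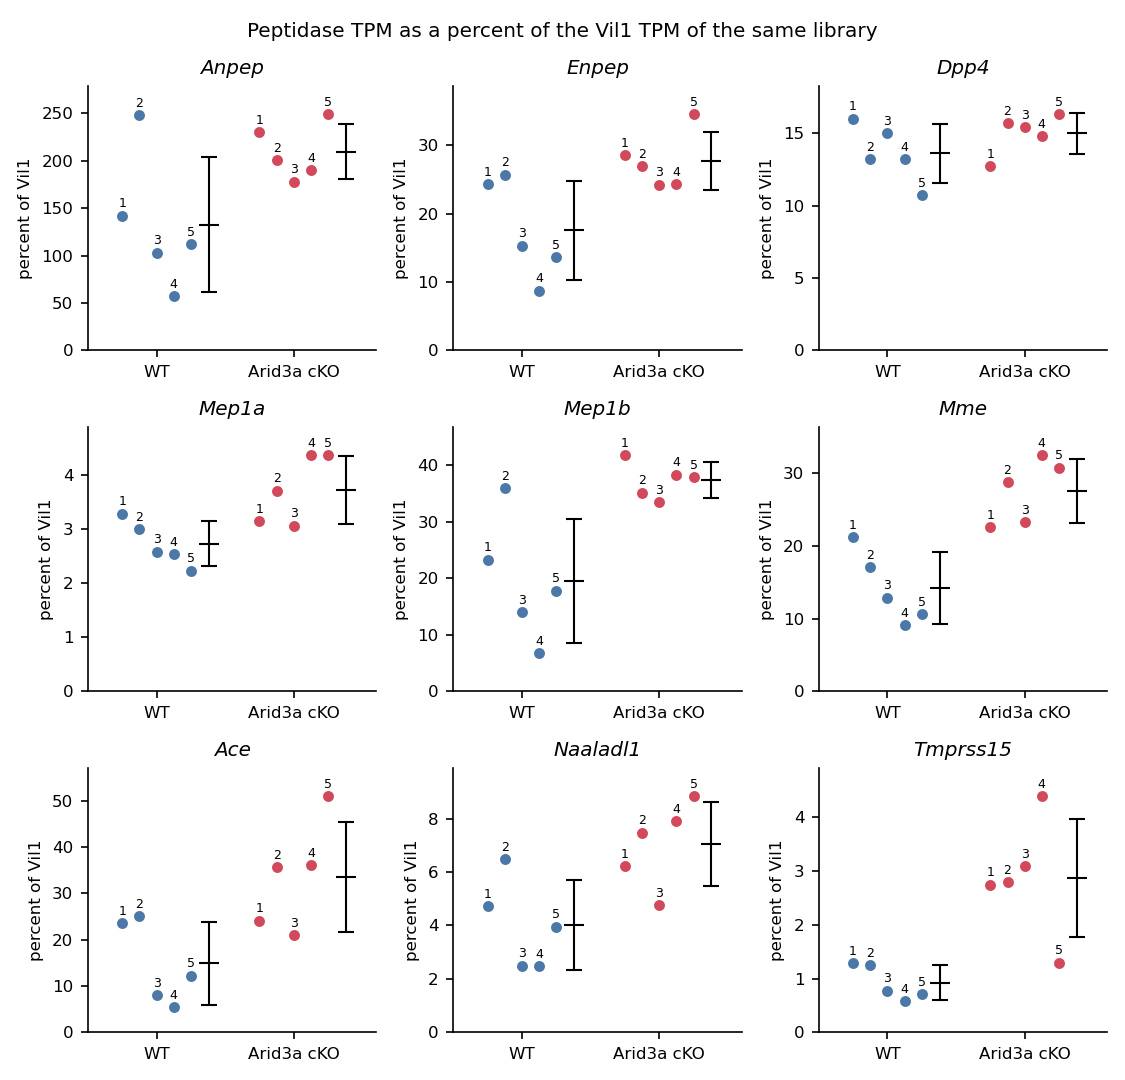
TPM of each peptidase as a percent of the Vil1 TPM of the same library (vertical axes, linear and from 0), for the 5 WT (blue) and 5 Arid3a cKO (red) libraries numbered by replicate, with the mean ± SD (black, n = 5). Groups are separate for Mme and Tmprss15, and Dpp4 shows nearly the same range in both groups.

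Markers of mature enterocytes moved with the peptidases. All 8 of the list (Alpi, Sis, Lct, Fabp1, Fabp2, Apoa1, Apoa4 and Krt20) rose, by log2 1.47 to 2.06, and their summed level was 4380, 6870, 1950, 1330 and 3370 TPM in WT and 10300, 10100, 7030, 14000 and 13800 TPM in Arid3a cKO. As for the peptidases, WT replicate 4 was lowest and WT replicate 2 highest in WT, and Arid3a cKO replicate 3 lowest in its group. None of the 8 was at 0 in any library. When 1 library was left out, Alpi and Sis kept their calls throughout, Fabp2 and Apoa4 lost it only without Arid3a cKO replicate 5 (adjusted p = 0.0553 for Fabp2 and at the threshold for Apoa4), and Krt20, Lct, Apoa1 and Fabp1 lost it without 3 to 8 of the 10 libraries (highest adjusted p 0.0577, 0.0610, 0.0668 and 0.0988). Relative to the geometric mean of this list in place of Vil1, an alternative chosen after seeing the data, none of the 9 peptidases was higher and 5 were lower, beside 0.124% and 95.3% of all genes. In that ratio the 5 were Dpp4, Mep1a, Enpep, Anpep and Naaladl1. Dpp4 differed by log2 -1.03 (exact p = 0.0159, adjusted p = 0.0178), with means of -2.59 in WT and -3.62 in Arid3a cKO. Mep1a (-0.73, exact p = 0.0238, adjusted p = 0.0259) and Naaladl1 (-0.30, exact p = 0.0317, adjusted p = 0.0339) also passed. Enpep (-0.42) and Anpep (-0.36) came just under the threshold, each with an exact p of 0.0476 and an adjusted p of 0.0499. Because most genes were lower in this ratio, the adjustment changed the exact p little. Mme (-0.16) and Mep1b (-0.04) did not pass. Ace had a difference of 0.16 (exact p = 0.444, adjusted p = 0.448) and Tmprss15 one of 0.43 (exact p = 0.262, adjusted p = 0.265). These were the only members with a value above 0. The part of a change in the number of enterocytes in the crypt fraction was not tested.

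Markers of the crypt base moved the other way. All 4 Paneth cell markers fell, by log2 0.60 (Lyz1, lysozyme, the most abundant) to 1.29 (Mptx2), with Itln1 at 0.68 and Mmp7 at 1.01 between them, with summed levels of 8490 to 15900 TPM in WT and 5580 to 7960 in Arid3a cKO, and of 6 stem and progenitor markers 3 fell, with sums of 2460 to 4380 and 1810 to 2860 TPM. Mptx2 lost its call without WT replicate 1 (adjusted p = 0.0514), 3 (0.0613) or Arid3a cKO replicate 3 (0.0516), and the other Paneth markers kept theirs. The 3 stem and progenitor calls (Olfm4, Ascl2 and Smoc2) each were lost without 5 to 7 of the 10 libraries, with highest adjusted p of 0.0649, 0.0683 and 0.0977.

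Markers of other cell types were low beside those of the epithelium. Dpp4, Anpep and Mme are also known from T cells, myeloid cells and stromal or B cells respectively, and the markers of those cells were read for that reason. Of 7 tested T cell markers 1, Cd4, fell by log2 1.69 and none rose, beside 12.7% and 15.6% of all genes. The same shares stand beside the counts of the other cell types below. Cd4 was low, at 1.09 ± 0.464 TPM in WT and 0.362 ± 0.262 in Arid3a cKO (SD). The T cell list had sums of 24.5 to 71.3 TPM in WT and 29.2 to 71.1 in Arid3a cKO. The most abundant, Cd3g, was at 15.2 ± 7.69 and 16.5 ± 6.60 TPM (SD). The T cell sum was lowest in WT replicate 4 (24.5 TPM) and Arid3a cKO replicate 3 (29.2), as for most peptidases. It was highest in WT replicate 1 (71.3) and Arid3a cKO replicate 4 (71.1). Of 6 B and plasma cell markers 2, Cd79b and Jchain, fell and none rose, with sums of 20.2 to 60.5 and 6.89 to 18.6 TPM. The Cd79b call was lost without WT replicate 4 (adjusted p = 0.0561) or Arid3a cKO replicate 1 (0.0576) or 4 (0.0507). None of 6 myeloid and none of 6 fibroblast markers passed in edgeR (2 and 0 at an unadjusted p under 0.05, and 1 and 0 in DESeq2), with sums of 26.2 to 66.8 and 15.6 to 93.8 TPM for the myeloid list and 2.82 to 41.4 and 3.74 to 50.7 TPM for fibroblasts. The most abundant of these, Lyz2 and Dcn, had log2 fold changes of -0.33 ± 0.72 and -1.05 ± 0.87 (SE; adjusted p = 0.763 and 0.399). Endothelial markers summed to at most 2.58 TPM, and of 3 tested Pecam1 fell by log2 1.19 (adjusted p = 0.00984), a call that held when any library was left out. Those of pericytes and smooth muscle summed to at most 2.43 TPM, and of 5 tested Acta2 fell by log2 1.59 (adjusted p = 0.0455, all edgeR), a call lost without 7 of the 10 libraries (WT replicate 3, 4 or 5 or Arid3a cKO replicate 1, 2, 3 or 5, highest adjusted p 0.112). Genes of pancreatic proteases and lipase, which mark the exocrine pancreas, were too low to be tested, with sums of 0.28 to 12.4 TPM in WT and 0.27 to 3.73 in Arid3a cKO, and the most abundant, Ctrb1, was at no more than 3.97 TPM in any library. No gene of these lists rose. The region along the gut was read from a pair of short lists: of the proximal one Slc40a1 and Fabp1 rose and the other 4 did not pass, and of 4 tested distal markers none passed in edgeR (2 at an unadjusted p under 0.05, 1 in DESeq2), the most abundant, Slc51a, having a log2 fold change of 1.00 ± 0.34 (SE; adjusted p = 0.0534).

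Beside the 9 members, 6 further peptidases of apical membranes were read, of which 4 were tested and 3 rose. These were Ggt1, gamma-glutamyltransferase and the most abundant of them (log2 1.86 ± 0.46, SE; adjusted p = 0.0165), the dipeptidase Dpep1 (1.66 ± 0.47; adjusted p = 0.0273) and the aminopeptidase P Xpnpep2 (1.04 ± 0.31; adjusted p = 0.0302, all edgeR). Ggt1 kept its call when any library was left out. Dpep1 lost it without WT replicate 3 (0.0567) or 5 (0.0599) or Arid3a cKO replicate 1 (0.0537), 4 (0.0548) or 5 (0.0655), and Xpnpep2 without WT replicate 3, 4 or 5 or Arid3a cKO replicate 1, 2, 4 or 5 (0.0512 to 0.0737). The carboxypeptidase Cpm differed by log2 -0.09 ± 0.18 (adjusted p = 0.736), at 9.70 ± 2.59 TPM in WT and 8.34 ± 1.97 in Arid3a cKO (SD, n = 5). Folh1 and Naalad2, the nearest relatives of Naaladl1, were at no more than 0.09 TPM in any library and were not tested.

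The soluble peptidases inside the cell, which finish the breakdown of absorbed di- and tripeptides, moved in both directions: of 16 tested, 2 rose, 2 fell and 12 did not pass in edgeR, beside 28.3% of all genes in either direction, and their median log2 fold change was -0.01. At an unadjusted p under 0.05 there were 7 of the 16, and DESeq2 called 7, of which 4 were higher and 3 lower. Scaled by library size alone, 2 were higher and 6 lower. The 4 that passed were picked out for naming after their values were seen. Pepd, which splits dipeptides ending in proline, rose by log2 1.10 ± 0.25 (SE; adjusted p = 0.0103), and the dipeptidase Cndp2 by 1.06 ± 0.29 (adjusted p = 0.0234). Cndp2 did not pass without WT replicate 3 (0.0512), 4 (0.0525) or 5 (0.0517) or Arid3a cKO replicate 5 (0.0529). The oligopeptidases Prep and Thop1 fell by 0.29 ± 0.08 (adjusted p = 0.0153) and 0.49 ± 0.12 (adjusted p = 0.00951, all edgeR). Rnpep, the most abundant of the 16, stood at 144 ± 8.50 TPM in WT and 127 ± 13.0 in Arid3a cKO (SD; log2 -0.07, adjusted p = 0.514).

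Further membrane proteases and relatives of the members were also read. Among 6 epithelial membrane serine proteases and their inhibitors, to whose wider family enteropeptidase belongs, 1 rose and none fell in edgeR. Of all genes, 15.6% rose and 12.7% fell. The inhibitor Spint1 rose by log2 0.42 ± 0.10 (SE, adjusted p = 0.00820, edgeR), and 2 of the 6 had an unadjusted p under 0.05. Scaled by library size alone 2 were lower, and with limma on TPM 1 was lower. The most abundant, Spint2, was at 585 ± 26.9 and 577 ± 43.1 TPM (SD). Of 10 relatives of the members by family 4 were abundant enough to be tested. None passed in edgeR, beside 28.3% of all genes, with 0 at an unadjusted p under 0.05 and 0 in DESeq2. The most abundant, Erap1, an aminopeptidase of the endoplasmic reticulum related to Anpep, was at 87.0 ± 18.1 TPM in WT and 66.9 ± 5.82 in Arid3a cKO (log2 -0.03, adjusted p = 0.797).

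Most genes read for peptide and amino acid transport, not all of them apical, rose alongside. Of the 7 genes 6 rose, beside 15.6% of all genes. Slc15a1, the di- and tripeptide carrier PEPT1, rose most (log2 2.03 ± 0.53, SE, adjusted p = 0.0212, edgeR). Next came Slc6a19, the neutral amino acid carrier (1.86 ± 0.46, adjusted p = 0.0167, edgeR). Slc15a1 lost its call without Arid3a cKO replicate 5 (0.0540), and the other 5 kept theirs. The most abundant, the basolateral Slc7a8, rose by 0.58 ± 0.15 (adjusted p = 0.0141), and Slc3a1, Slc7a7 and Slc7a9 by 1.00, 1.07 and 1.21, while Slc1a1, for acidic amino acids, did not pass. All 10 genes of brush border structure rose, by log2 0.35 (Ush1c) to 1.35 (Cdhr2), with Eps8, Myo7b, Ezr, Myo1a, Vil1, Cdhr5, Espn and Pls1 between them, each with a call that held when any library was left out, and their median of 0.78 compares with 1.54 for the peptidases. Of 7 transcription factors of enterocytes Hnf4g alone rose in edgeR (log2 1.05 ± 0.14, SE, adjusted p = 0.000926), a share near the 15.6% of all genes. At an unadjusted p under 0.05 in edgeR there were 2 of the 7, and DESeq2 called 2. The most abundant, Hnf4a, was at 374 ± 40.6 and 309 ± 14.6 TPM (SD, log2 -0.15, adjusted p = 0.120, edgeR).

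**Figure D4:**
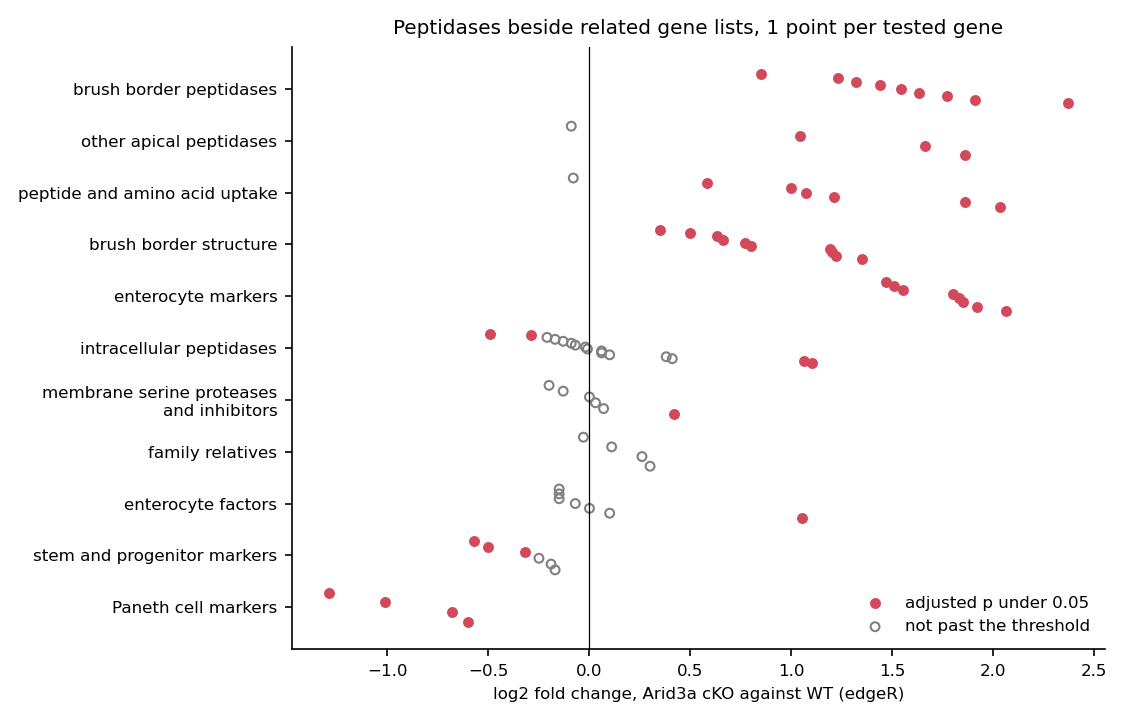
Log2 fold change of Arid3a cKO against WT from edgeR (horizontal axis) for each tested gene of the 9 peptidases and of 10 other lists (rows), filled red where the adjusted p is under 0.05 and open grey where it is not. The peptidases lie between 0.85 and 2.37, a wider span than the 1.47 to 2.06 of the enterocyte markers, and their median of 1.54 lies to the right of the 0.78 of brush border structure, while the intracellular peptidases centre near 0.

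Profiles over the 10 libraries were compared as log2 CPM (counts scaled by library size and edgeR's TMM factors), each centred on its mean. The comparison took in 9194 genes with a mean of at least 10 CPM over all 10 libraries and reads in each. Some of the nearest genes were thus below 10 CPM in WT. The gene outside the set nearest to each member was found in this way. For Ace it was Lct, lactase (root mean square difference 0.131 on the log2 scale), for Mme it was Apob, the apolipoprotein of chylomicrons (0.109), and for Mep1b it was Slc5a11, an inositol carrier (0.136). The nearest to Anpep was Tmem86b (0.174), to Enpep Apol7a (0.149), to Naaladl1 Plpp1 (0.138), to Dpp4 Grina (0.102) and to Mep1a Fbln1 (0.121). Tmprss15 had the least close match, Slc16a9 (0.325). Within the set the closest pair was Anpep and Enpep (0.118), nearer to each other than either was to any gene outside it, and Tmprss15 was farthest from its nearest member, Mme (0.522). These distances describe the libraries and carry no test, and all of them contain the difference between the groups.

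The count of 9 was the same with DESeq2 (17.7% of genes higher) and with limma on log2(TPM + 1) (10.1% of 13852 genes higher), and on the TPM scale it stayed at 9 when any 1 library was left out. In edgeR the count fell to between 4 and 9 when 1 library was left out, lowest without Arid3a cKO replicate 5. Without WT replicates 3 and 4 together, 5 of 9 passed (9.77% of genes higher): Dpp4, Mep1a, Mep1b, Mme and Tmprss15, while Anpep (log2 0.95, adjusted p = 0.107), Enpep (1.05, 0.0613), Ace (1.41, 0.0883) and Naaladl1 (1.14, 0.0717) did not. A test against a fold change of 1.5 in place of 0 (edgeR's glmTreat) called 0 of 9 (0.516% of genes higher), with all 9 at an unadjusted p under 0.05 and Tmprss15 nearest at an adjusted p of 0.0509. Scaling by library size alone gave 9 of 9 too, but turned the split over all genes from 2298 higher and 1869 lower to 1541 higher and 4030 lower and moved the median log2 fold change of all genes from -0.03 to -0.16, beside 1.41 for the peptidases.

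**Figure D5:**
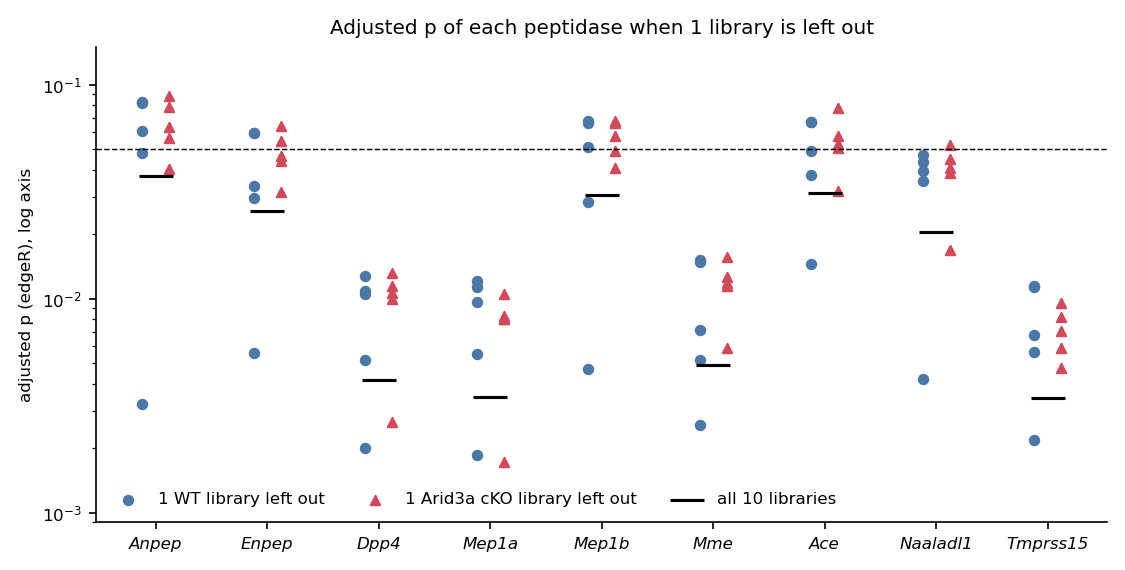
Adjusted p from edgeR (vertical axis, log scale) of each peptidase with all 10 libraries (black bar), with 1 WT library left out (blue circles) and with 1 Arid3a cKO library left out (red triangles), and the threshold of 0.05 (dashed). Dpp4, Mep1a, Mme and Tmprss15 stay at or below 0.0156, and Anpep, Enpep, Mep1b, Ace and Naaladl1 cross the threshold.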

How the data were processed

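Polyadenylated RNA from crypts of 5 WT and 5 Arid3a cKO mice was sequenced. The authors aligned reads with STAR and quantified genes with RSEM on GRCm38 in an nf-core pipeline, and deposited expected counts, TPM and FPKM per gene with transcript lengths. Expected counts as deposited were rounded to whole numbers. The TPM deposited by the authors gave levels per length, and the deposited FPKM were not tested. The strand setting is not given in the sources used here. Symbols were matched for 54723 of 54838 gene IDs, and the IDs without one held 0.0193% of counts. The genes, lists and tests were chosen with earlier results of these data known.

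Counts were tested with edgeR 4.0.16 (TMM, robust quasi-likelihood test, filterByExpr with a minimum count of 10 and a minimum total of 15, R 4.3.3), with Benjamini-Hochberg adjustment over the 14719 genes kept. On simulated data of the same size it recovered 86 of 100 genes changed by log2 1 and 97 of 100 changed by log2 2, with 6 false calls. The changed genes there were drawn from those with more counts, and were far fewer than the genes called in the real data. Each simulated gene varied on its own, while the peptidases shared an order of libraries. These rates need not carry over to the peptidases. Ratios of TPM were tested by exact permutation. Alternatives used DESeq2 1.42.0, limma 3.58.1 (TPM of at least 0.5 in 5 libraries, pseudocount 1) and sva 3.50.0. Named genes were Arid3a, Vil1, the 9 members, genes that passed in lists of up to 10 genes, the most abundant gene of each list and the gene nearest to each member in profile. Other genes named in counts of 5 or fewer, such as Cpm, Folh1, Naalad2 and Slc1a1, were picked after their values were seen. List genes outside this rule are given only in counts and sums, and a further gene was left out of the lists and is not reported here. Positions are from GENCODE and promoters from RefSeq, both GRCm38, the build of the deposited files. Libraries held 27050455 to 31053622 counts. Counting error weighs more for genes with few counts, such as Arid3a with 9 to 31 in Arid3a cKO. It was not compared with the spread between animals. In every pair of libraries at least 40.1% of the listed genes differed in their counts, so no library was a copy of another.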

Additional observations from a re-analysis of the deposited data

How the results depend on the processing

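All 9 peptidases kept their direction under all 23 alternatives to the edgeR fit, with 162 of 207 calls kept and 45 lost. The number higher was 4 with no filter on low counts, 0 against a fold change of 1.5, 4 to 9 with 1 library left out and 5 without WT replicates 3 and 4. The log2 fold change of Arid3a was -2.13 to -1.65 in 21 alternatives and kept its call in each. Over all genes, 1397 were higher with limma on TPM, 76 higher and 20 lower against a fold change of 1.5, 1472 higher and 671 lower without WT replicates 3 and 4, 4030 lower when scaled by library size only, and 1760 to 2572 higher and 1131 to 2112 lower with 1 library left out, the fewest lower without WT replicate 4. Of the related lists together 23 genes were higher and 2 lower, with 0 and 0 against a fold change of 1.5. There the number lower was 4 with DESeq2, 11 by library size only, 6 with limma on TPM, 0 without WT replicates 3 and 4, and 2 to 4 with 1 library left out, most without Arid3a cKO replicate 1. The number of peptidases higher relative to Vil1, 5, was 6 relative to Ezr, 4 relative to the brush border list, 7 in CPM and 2 to 7 with 1 library left out. Relative to the enterocyte list it was 0, with 5 lower, and the differences turned to -0.36 (Anpep), -0.42 (Enpep), -1.03 (Dpp4), -0.73 (Mep1a), -0.04 (Mep1b), -0.16 (Mme) and -0.30 (Naaladl1). The cause of these shifts was not tested.

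Same-numbered animals were not paired by the labels, and their deviations correlated by -0.16 to 0.13, with 0 samples closest to their own number. With the replicate number as a block 6 of 9 peptidases passed (not Anpep, 0.0552, Mep1b, 0.0601, or Ace, 0.0643), 1191 genes were lower, and 1 gene of the related lists was lower.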
